A study of Rattus norvegicus with 28 samples.

Results

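Rats received ketanserin or its vehicle first and psilocybin second, and the comparison described here is the addition of ketanserin at 1 mg/kg to psilocybin at 1 mg/kg. Its members were chosen by their treatment labels: 4 libraries from rats given both drugs (the combination) and 4 from rats given vehicle and then psilocybin (psilocybin alone), 8 of the 28 libraries in the series. All animals were adult male Sprague-Dawley rats, 8 weeks old on arrival, and the tissue was prefrontal cortex taken 24 h after the injections. Ketanserin was dissolved in 5% Tween-80 and injected intraperitoneally, psilocybin was given in saline by a second injection, and so the psilocybin group also carried an injection of 5% Tween-80. Other groups of 4 enter as references: both vehicles (5% Tween-80, then saline), ketanserin at 1 mg/kg followed by saline, and the matching pair at 3 mg/kg, psilocybin with and without ketanserin at 3 mg/kg. Polyadenylated RNA was sequenced in directional libraries, and the labels call the 4 libraries of a group biological replicates without naming the animals, so replicate numbers only name a library.

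Psilocybin is a prodrug whose product, psilocin, activates several serotonin receptors, and its perceptual effects in humans depend on the serotonin 2A receptor, encoded by Htr2a. This receptor couples through Gq proteins to phospholipase C and is abundant on the apical dendrites of cortical pyramidal neurons. Ketanserin is an antagonist that binds the 2A receptor with high affinity, the 2C receptor less well, and also alpha-1 adrenergic and histamine H1 receptors, and it is the usual agent for blocking 2A signalling before a psychedelic is given. The comparison asks which transcripts differ at 24 h between rats given ketanserin before psilocybin and rats given vehicle before psilocybin. Receptor occupancy is not part of these data.

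Each of the 28 libraries held 12783067 to 18538414 counts assigned to genes, the combination 13346016 to 16691980 and psilocybin alone 15109281 to 15618781. The mitochondrial genome supplied 7.46% to 9.09% of counts in the combination and 8.03% to 11.7% in psilocybin alone. Slc17a7, the vesicular glutamate transporter of cortical excitatory neurons, stood at 793 ± 75.7 FPKM (SD, n = 4) in the combination and 852 ± 60.9 in psilocybin alone. Adora2a, a marker of striatal indirect-pathway neurons, was at 3.06 ± 0.798 and 3.27 ± 0.584 FPKM. One library outside the comparison, replicate 4 of ketanserin and psilocybin at 3 mg/kg, lay far from the other 27 on the first principal component. It stood at -133.1 there, against -35.05 to 35.35 in the combination and -17.53 to 44.72 in psilocybin alone. Psilocybin replicate 2 held both the 44.72 and the 11.7% of mitochondrial counts.

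No gene passed an adjusted p of 0.05 when ketanserin was added to psilocybin (0% of 17404 tested genes, edgeR quasi-likelihood test). At an unadjusted p under 0.05 there were 718 genes (4.13%), of which 324 were higher (1.86%) and 394 lower (2.26%) in the combination. Leaving out a single library of either group gave from 349 such genes, without psilocybin replicate 2, to 1205, without combination replicate 3. In 583 genes the 4 libraries of one group lay wholly above those of the other (3.35%), 282 with the combination higher (1.62%) and 301 with it lower (1.73%). Over all tested genes the median log2 fold change was 0.01, and for the 15177 genes that averaged at least 1 CPM (counts scaled to the size of the library), the 95% interval reached a median of 0.43 log2 units to either side. For a gene whose interval has that width, a difference smaller than 0.43 has an interval that includes 0. Genes with narrower intervals can exclude 0 at smaller differences.

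**Figure D1:**
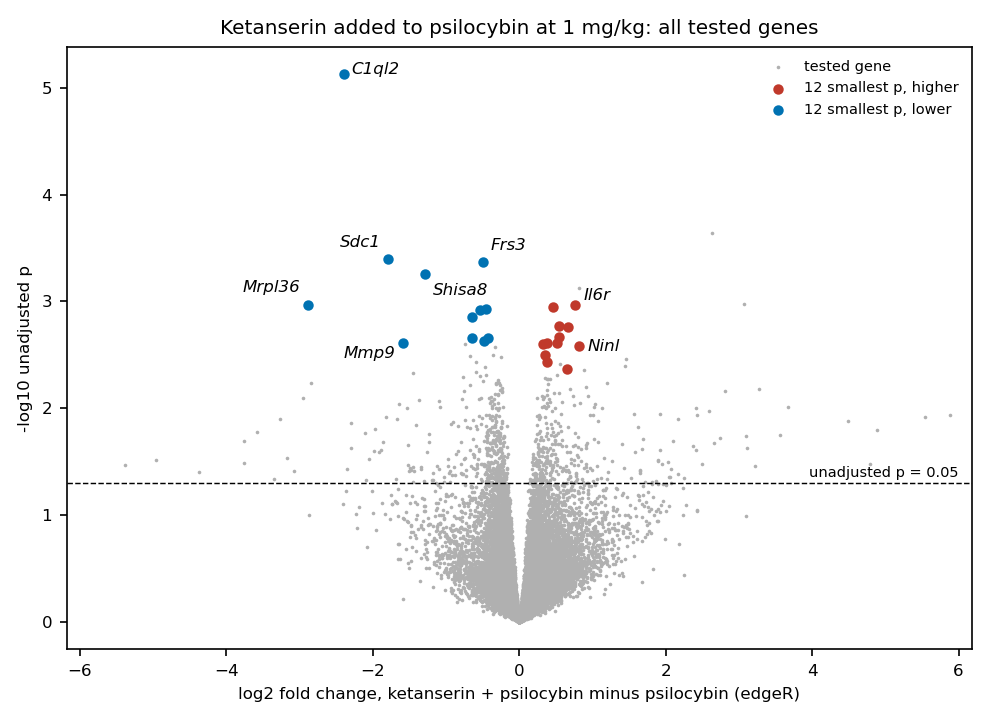
Log2 fold change (x axis) against -log10 of the unadjusted p (y axis) for 17404 tested genes, combination minus psilocybin alone, edgeR. Red and blue points are the 12 genes with the smallest p in each direction among those with a standard symbol and a mean of at least 1 CPM, and C1ql2 has the smallest p of all with an adjusted p of 0.131.

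The calls depended on the tool. DESeq2 called 1 gene, C1ql2, and limma without library weights called 0, with 753 genes at an unadjusted p under 0.05. A limma fit that weights each library by its own spread called 349 genes (2.01% of those tested), 142 higher (0.816%) and 207 lower (1.19%). It put 4455 of 17404 genes at an unadjusted p under 0.05, against the 753 of limma without weights. Those weights ran from 0.525 to 2.07 in the combination and from 0.667 to 3.39 in psilocybin alone, where replicate 3 carried the largest weight of all 28 libraries. The weighted calls are given below only as a second reading beside the edgeR values.

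C1ql2 had the smallest p of the comparison. It encodes a secreted C1q-like protein that bridges presynaptic neurexin and postsynaptic kainate receptors, and it lies on chromosome 13 at chr13:36378356-36380302 (rn6). The combination libraries held 1.53, 2.67, 2.42 and 2.22 CPM in replicates 1 to 4, and psilocybin alone held 1.77, 20.3, 13.2 and 11.1 CPM. Replicates 2, 3 and 4 of psilocybin alone were thus high, while its replicate 1 sat inside the range of the combination, so the groups overlapped. This is a log2 fold change of -2.39 with an SE of 0.43 (95% interval -3.27 to -1.51). Its edgeR adjusted p was 0.131 and its DESeq2 adjusted p 0.000208. Leaving out psilocybin replicate 1 gave -2.73 with an edgeR adjusted p of 4.63e-05, and leaving out replicate 2 gave -1.97.

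By their means, vehicle and ketanserin alone lay between these groups for C1ql2. Vehicle libraries ranged from 4.46 to 6.17 CPM and ketanserin alone from 3.37 to 5.16 CPM, so all 4 combination libraries were below all 4 vehicle libraries. Against vehicle, psilocybin alone was higher by a log2 fold change of 1.14 (SE 0.40) and the combination was lower by -1.25 (SE 0.42), with edgeR adjusted p values of 1.00 for each. These 2 values share the vehicle libraries and are given side by side only. Related family members did not show the same split: C1ql1 was at 16.4 ± 1.62 and 20.04 ± 2.63 FPKM and C1ql3 at 100.4 ± 25.02 and 95.06 ± 26.03 FPKM (combination and psilocybin alone, SD, n = 4).

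Several other low-abundance genes with small p values were also high in some psilocybin libraries. Sdc1, a cell-surface heparan sulfate proteoglycan, held 1.16, 1.56, 1.14 and 0.912 CPM in the combination and 1.64, 6.18, 5.38 and 3.43 CPM in psilocybin alone (log2 fold change -1.79, SE 0.44, edgeR adjusted p 0.894). Shisa8, an auxiliary subunit of AMPA receptors, held 3.85, 4.04, 5.15 and 4.05 CPM against 7.198, 16.8, 10.6 and 7.11 CPM (-1.29, SE 0.33, adjusted p 0.894 in edgeR). In both genes the groups did not overlap, and psilocybin replicate 2 was the highest library. Mmp9, a secreted protease that cuts the extracellular matrix, held 1.47, 2.084, 2.35 and 1.596 CPM in the combination and 1.77, 6.45, 8.74 and 5.55 CPM in psilocybin alone (-1.59, SE 0.47), and psilocybin replicate 1 was again inside the range of the combination.

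Among the 12 lower genes with the smallest p, psilocybin replicate 1 was the library of its group nearest the combination in 7 and psilocybin replicate 2 was the farthest in 10. The median log2 fold change of these 12 was -0.65. In only 1 of the 12, C1ql2, were all 4 combination libraries also below all 4 vehicle libraries. In 10 of the 12 the combination and psilocybin alone did not overlap (1.73% of all genes in that direction), which the choice by p favours. Mrpl36, a protein of the large mitochondrial ribosomal subunit, had the largest fold among them (-2.89, SE 0.78) at 0.793 ± 0.395 against 5.92 ± 3.20 CPM. The table holds 2 records under the symbol Mrpl36, so reads may be split between them and the value is uncertain.

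**Figure D2:**
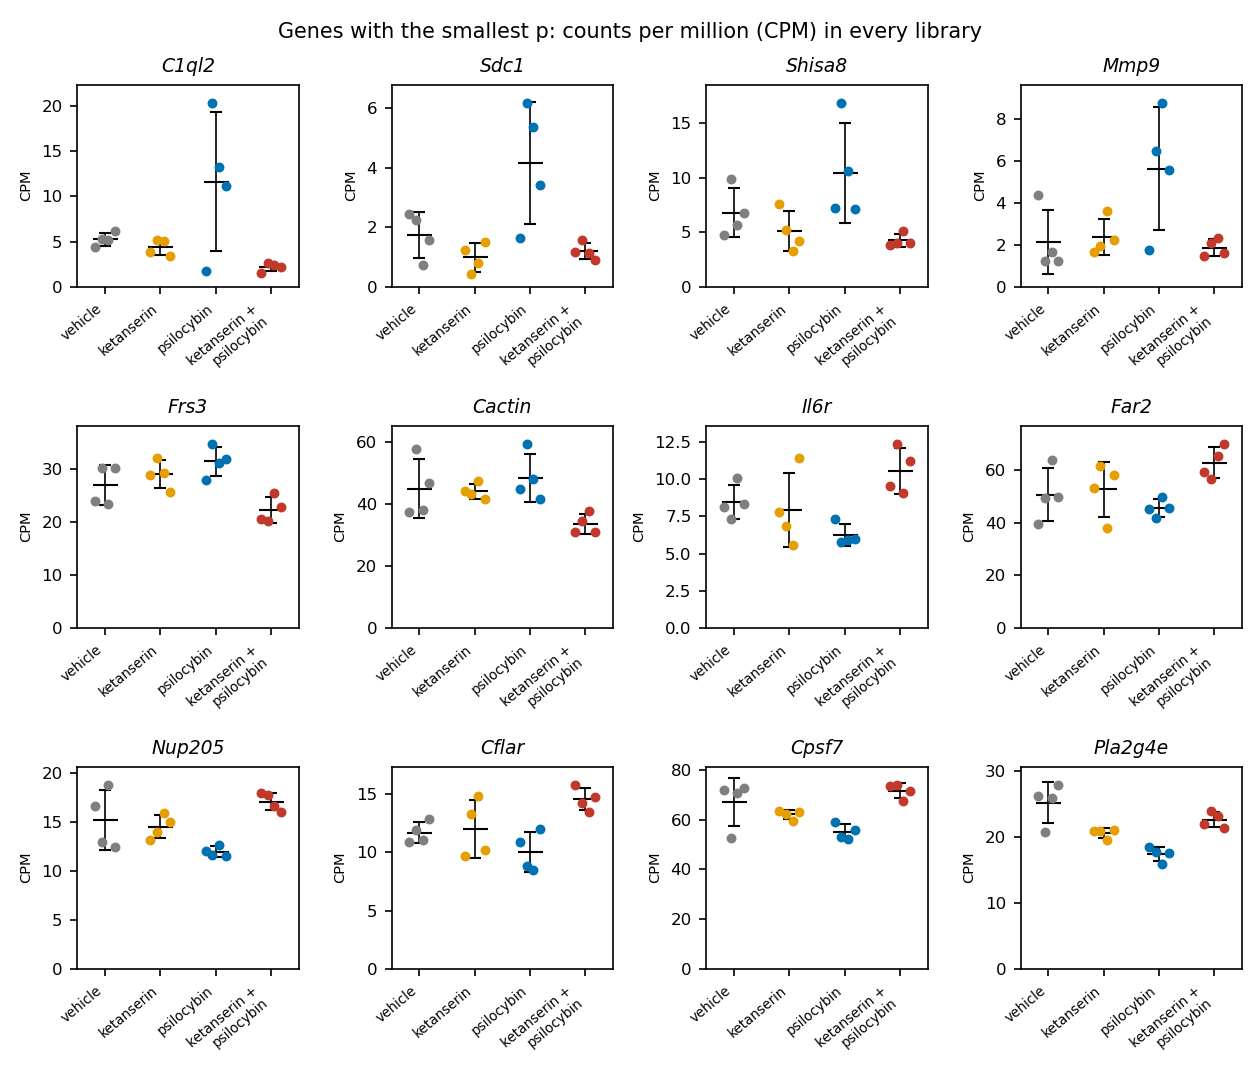
CPM (y axis, linear from 0) for 12 named genes in 4 groups of 4 libraries, each point 1 library, bars mean ± SD. C1ql2, Sdc1, Shisa8 and Mmp9 are spread widely in psilocybin alone, where C1ql2 runs from 1.77 to 20.3 CPM, while Nup205, Cpsf7 and Pla2g4e have narrow groups.

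The remaining lower genes had narrower groups. Frs3, an adaptor of fibroblast growth factor receptors, held 20.5, 20.2, 25.5 and 22.8 CPM in the combination and 27.9, 34.7, 31.2 and 31.8 CPM in psilocybin alone. Every combination library was below every psilocybin library, with a log2 fold change of -0.50 (SE 0.12) and an edgeR adjusted p of 0.894. Cactin, a spliceosome-associated regulator of NF-kappaB signalling, held 30.9 to 37.7 CPM against 41.7 to 59.4 CPM (-0.53, SE 0.15). Ptger1, the Gq-coupled prostaglandin E2 receptor EP1, held 10.4 to 12.7 CPM against 16.42 to 21.01 CPM (-0.65, SE 0.18). The other genes of this set were Trip10, an F-BAR membrane-bending protein (-0.65), Sema7a, a membrane-anchored semaphorin (-0.42), Ccdc184 (-0.48) and Serpinh1, described with the chaperones below. Limma with library weights called 11 of the 12, all but Mrpl36, against 2.01% of all genes, and the choice by p on the same counts favours such calls.

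Higher genes in the combination had smaller folds than the lower ones. Their 12 log2 fold changes ran from 0.32 to 0.81, with a median of 0.52. In 10 of the 12 the groups did not overlap (1.62% of all genes in that direction), which the choice by p favours. In only 1 of the 12 were all 4 combination libraries also above all 4 vehicle libraries. Il6r, the ligand-binding chain of the interleukin-6 receptor, held 9.54, 12.4, 9.10 and 11.2 CPM in the combination and 7.33, 5.76, 5.92 and 5.99 CPM in psilocybin alone (chr2:189205701-189254628, rn6). Every combination library was above every psilocybin library, at a log2 fold change of 0.76 (SE 0.21) and an edgeR adjusted p of 0.894. Far2, which reduces fatty acyl-CoA to fatty alcohols, held 59.3, 56.5, 65.3 and 69.8 CPM against 45.0, 41.7, 49.7 and 45.6 CPM (0.46, SE 0.13).

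Nup205, a scaffold protein of the nuclear pore, held 17.98, 17.8, 16.7 and 16.1 CPM in the combination and 12.1, 11.7, 12.7 and 11.5 CPM in psilocybin alone (log2 fold change 0.51, SE 0.15). Cflar, the caspase-8 inhibitor c-FLIP, held 13.5 to 15.8 CPM against 8.48 to 12.03 CPM (0.54, SE 0.16). Cpsf7, a subunit of the complex that cleaves and polyadenylates pre-mRNA, held 67.3 to 73.9 CPM against 52.3 to 59.2 CPM (0.38, SE 0.12). In these 3 genes the groups did not overlap, and the edgeR adjusted p was 0.894 for each. Pla2g4e, a calcium-dependent acyltransferase that makes precursors of anandamide, held 21.3 to 23.8 CPM against 15.9 to 18.4 CPM (0.38, SE 0.11). The other higher genes were Ninl, a centrosomal protein (0.81), Simc1 (0.67), Fam227a (0.66), Ppfibp1, a liprin scaffold (0.54), Sh3kbp1, an endocytic adaptor (0.36), and Taz (0.32). Limma with library weights called 11 of the 12, all but Far2 (2.01% of all genes), and the choice by p on the same counts favours that too.

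The addition of ketanserin was next set against 2 contrasts that use none of the same libraries. The first was ketanserin at 1 mg/kg alone minus vehicle, and the second was ketanserin added to psilocybin at 3 mg/kg. Of the 12 higher genes, 2 had the same sign with ketanserin alone (median log2 fold change -0.12) and 9 in the 3 mg/kg pair (median 0.03). Of the 12 lower genes, 7 had the same sign in each, with medians of -0.03 and -0.05. The higher genes thus mostly had the opposite sign with ketanserin alone, where they ran from -0.29 to 0.06.

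**Figure D3:**
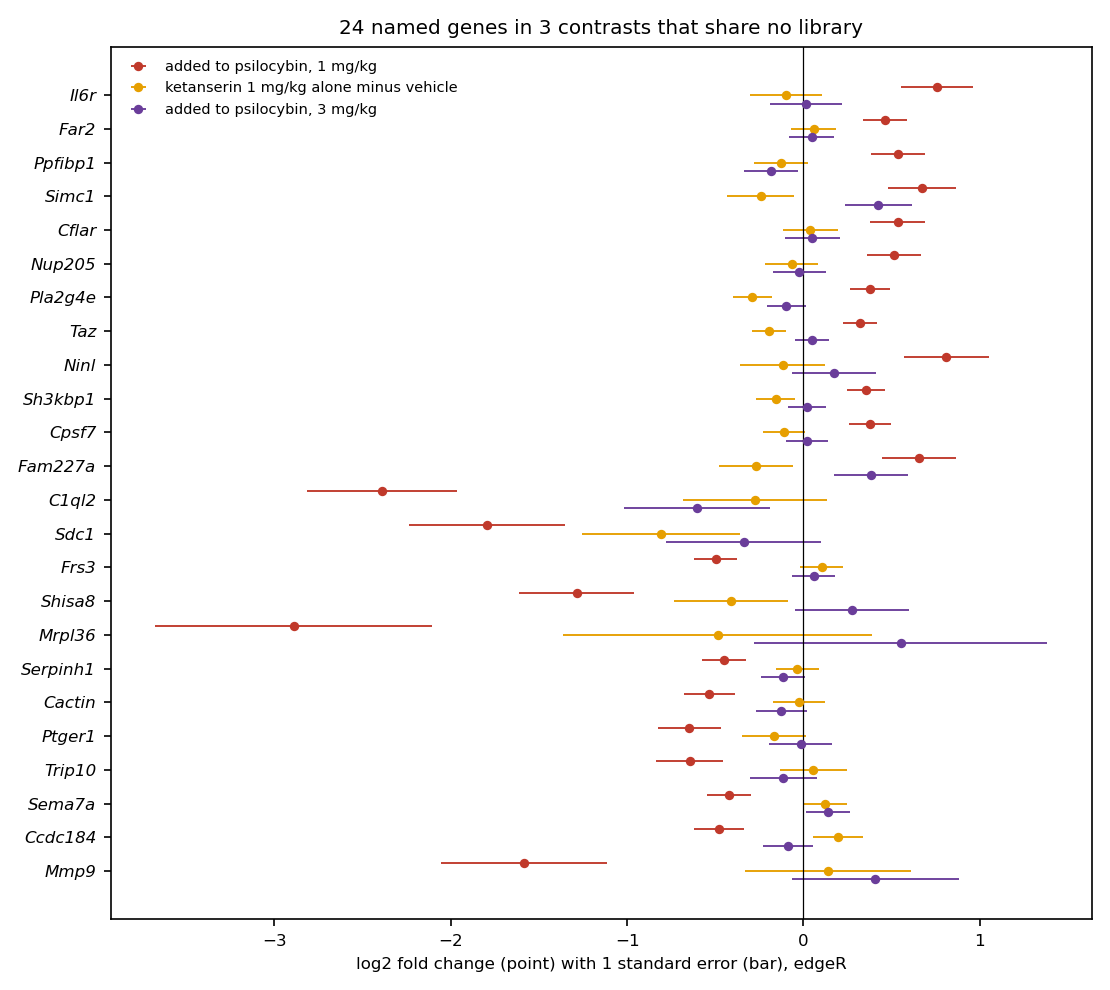
Log2 fold change with 1 SE (x axis, edgeR) of the 24 named genes in 3 contrasts of 4 against 4 libraries that share no library. The purple contrast, at 3 mg/kg, includes the distant library. The red points were used to choose the genes; the medians of the 12 higher genes are 0.52 (red), -0.12 (orange) and 0.03 (purple).

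Across all 17404 genes, the log2 fold changes of adding ketanserin at 1 mg/kg and of ketanserin alone had a Pearson r of -0.06 and a Spearman rho of -0.15, and 41.4% of genes had the same sign. Between the 1 mg/kg and the 3 mg/kg pair the values were 0.13, 0.32 and 65.8%. The part of the distant library of the 3 mg/kg pair in these values was not tested. Genes are not independent replicates, and points that share a library-wide shift move together, so these are descriptions with no p. Of the 718 genes with an unadjusted p under 0.05 in the 1 mg/kg pair, 277 had the same sign with ketanserin alone and 487 in the 3 mg/kg pair.

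Whether the difference depended on psilocybin was tested directly, as the effect of ketanserin with psilocybin minus its effect without. No gene passed (0% of those tested), with 712 at an unadjusted p under 0.05 (4.09%), and the smallest adjusted p was 0.938 in edgeR. The 3 smallest p in each direction were Pla2g4e (difference of log2 fold changes 0.67, SE 0.16), Taz (0.52, SE 0.14) and Supt20 (0.58, SE 0.16), and Zfpm1 (-0.78, SE 0.21), C1ql2 (-2.12, SE 0.58) and Fscn1 (-0.51, SE 0.14). For Pla2g4e the separate values were 0.38 with psilocybin and -0.29 (SE 0.11) without it. The 95% interval of this difference reached a median of 0.61 log2 units to either side. For a gene with an interval of that width, only larger differences could be seen. Limma with library weights called 1249 genes here, limma without them 0, and edgeR 1 gene when psilocybin replicate 1 was left out. At an unadjusted p under 0.05, limma with library weights had 5050 genes and limma without them 779.

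The same test against the 3 mg/kg pair also found no gene (0%), with 521 at an unadjusted p under 0.05 (2.99%) and a smallest edgeR adjusted p of 1.00. The named genes were Adprhl1 (difference 2.32, SE 0.58), Grcc10 (6.80, SE 1.73) and Timm17b (8.99, SE 2.46) on the higher side and Tsc22d4 (-3.47, SE 0.82), Syt12 (-0.46, SE 0.11) and Epcam (-2.93, SE 0.74) on the lower side. Timm17b was at 0.0612, 5.01, 0.455 and 5.53 CPM in the combination and at 0 to 0.202 CPM in psilocybin alone, and at 3 mg/kg psilocybin alone held 0.142, 0.169, 1.53 and 4.62 CPM against 0 to 0.124 CPM in the combination. Its difference thus rests on a few libraries in both pairs. Grcc10 was at 75.3 CPM in psilocybin replicate 4 at 3 mg/kg and at 1.52 CPM or less in the other libraries of the 4 groups, so its difference rests on that library. Tsc22d4 and Epcam were highest, at 14.5 and 4.42 CPM, in the distant library, replicate 4 of both drugs at 3 mg/kg, against 3.60 and 2.27 CPM or less in the others. The symbol Tsc22d4 has 2 records, which makes its value uncertain. Syt12, a synaptic vesicle synaptotagmin that binds no calcium, was at 65.1 to 83.5 CPM against 78.8 to 93.8 CPM, and its 3 mg/kg value was 0.23 (SE 0.08). At 3 mg/kg both drugs were given at the higher dose, and the 2 pairs differ in both. Limma with library weights called 4 genes in this test and limma without them 0.

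One provisional gene, LOC100911575 on chr1:214428526-214430515 (rn6), lay outside the naming rule and is given because its values stood out after they were seen. The combination libraries held 37.9, 53.5, 4.17 and 35.1 CPM and psilocybin alone 2.09, 4.12, 11.7 and 3.18 CPM, with a log2 fold change of 2.63 (SE 0.61, edgeR adjusted p 0.894). Replicate 3 of the combination was low, inside the psilocybin range. It was also at 26.6 to 51.3 CPM with ketanserin alone at 1 mg/kg and at 46.9 to 87.3 CPM with both drugs at 3 mg/kg, against 2.10 to 4.11 CPM in vehicle and 3.10 to 5.61 CPM with psilocybin at 3 mg/kg. Ketanserin alone at 3 mg/kg held only 2.496 to 16.02 CPM, so high libraries were not shared by every group given ketanserin. Its log2 fold changes in the disjoint contrasts were 3.79 (SE 0.64, adjusted p 0.0828) for ketanserin alone and 3.70 (SE 0.63, adjusted p 0.0896) in the 3 mg/kg pair, both from edgeR.

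The serotonin receptor genes were read next, since they include the direct targets of both drugs. Of 14 genes, 9 passed the filter on low counts, 5 with a higher and 4 with a lower fitted value in the combination (51.7% and 48.3% of all tested genes), and 0 called. The median log2 fold change was 0.13 (-0.02 with surrogate variables in the fit), against 0.01 over all genes. Htr2a held 31.1, 29.1, 29.9 and 39.7 CPM in the combination and 34.1, 27.5, 27.9 and 28.2 CPM in psilocybin alone. The groups overlapped, at a log2 fold change of 0.14 (SE 0.16, 95% interval -0.19 to 0.48, edgeR adjusted p 0.894). Htr2c, which encodes the 2C receptor, had -0.03 (SE 0.25), and its sign depended on which library was left out.

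By length-adjusted level the receptors ranked in the combination from Htr2a at 6.94 ± 1.04 FPKM through Htr1a at 5.03 ± 1.87, Htr3a at 4.66 ± 1.41, Htr2c at 4.58 ± 0.841, Htr6 at 4.42 ± 0.782 and Htr5a at 3.82 ± 2.26 FPKM (SD, n = 4). From Htr1a to Htr5a, neighbours in this order differed by less than their SD. In psilocybin alone Htr2a was at 6.30 ± 0.665, Htr1a at 2.86 ± 1.68 and Htr5a at 2.002 ± 0.855 FPKM. Htr1a, an inhibitory receptor of pyramidal cells and raphe neurons, held 6.05, 6.25, 3.87 and 9.69 CPM against 4.45, 1.098, 2.96 and 6.17 CPM (log2 fold change 0.82, SE 0.50). Htr5a, another Gi-coupled receptor, held 6.604, 6.38, 3.33 and 13.9 CPM against 3.86, 1.65, 4.78 and 5.55 CPM (0.93, SE 0.48). Both had overlapping groups and an edgeR adjusted p of 0.894. Htr2b was listed at 0 in all 8 libraries, and Htr7 and Htr3b reached at most 1 and 3 counts.

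The list of other ketanserin targets, receptor genes and the vesicular monoamine transporter gene Slc18a2, had 3 higher and 6 lower of 9 members. Its median was -0.15. Adra1d, an alpha-1 adrenergic receptor, held 129, 115, 141 and 124 CPM in the combination and 147, 185, 143 and 144 CPM in psilocybin alone (log2 fold change -0.28, SE 0.14). Adra2c, an alpha-2 receptor, held 32.4 to 36.9 CPM against 39.1 to 47.1 CPM (-0.29, SE 0.18), and in both genes the groups did not overlap, 2 of 9 members against 1.73% of all genes in that direction. Drd1, the D1 dopamine receptor, was at 3.49 to 8.08 CPM against 3.09 to 4.32 CPM (0.79, SE 0.38). Without psilocybin replicate 2 the median of this list was 0.

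Downstream of Gq, 14 of 17 signalling and arrestin genes had a higher and 3 a lower fitted value, at a median of 0.04 (-0.02 with surrogate variables in the fit). Adrbk1, the receptor kinase GRK2, was on the lower side at 289 to 345 CPM against 337 to 373 CPM (log2 fold change -0.21, SE 0.09), as was Arrb2, beta-arrestin 2, at 39.6 to 55.6 CPM against 45.6 to 64.0 CPM (-0.25, SE 0.14). On the higher side, Gnaq held 10.9 to 34.4 CPM against 7.69 to 24.8 CPM with overlap. Rgs2 was also higher, at 0.15 to 0.27 when single libraries were left out. Of the feedback genes of ERK signalling, 9 of 11 were higher, at a median of 0.19, which was 0.11 without combination replicate 4. The list level was 0.34 log2 units in that library and 0.00 to 0.11 in the other 3 of the combination. Dusp6, the ERK phosphatase, held 29.2, 29.0, 30.0 and 36.7 CPM against 25.8, 24.4, 23.5 and 23.7 CPM, without overlap (0.36, SE 0.14, edgeR adjusted p 0.894). The median of this list was 0.10 with ketanserin alone and 0.17 in the 3 mg/kg pair.

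Immediate early genes, which neurons induce within minutes of strong activity, had 16 higher and 13 lower of 29 tested members and a median of 0.03 at 24 h. Junb held 82.5, 98.5, 110.6 and 79.2 CPM in the combination and 71.3, 73.7, 67.4 and 67.4 CPM in psilocybin alone (log2 fold change 0.41, SE 0.25). Jun went the other way at 95.8 to 102 CPM against 106 to 128 CPM (-0.22, SE 0.11), and Jund likewise at 277 to 343 CPM against 351 to 441 CPM (-0.33, SE 0.16). These 3 subunits of the AP-1 factor were among 5 members whose groups did not overlap, 2 higher (1.62% of all genes) and 3 lower (1.73%). The other two were Fosl1, also of AP-1 (0.30), and Ier3 (-0.59). Members with the highest fitted values, Egr2 (0.78), Npas4 (0.71) and Arc (0.59), had overlapping groups and unadjusted edgeR p values of 0.149, 0.145 and 0.197. Among the late activity genes Ptgs2, cyclooxygenase 2, held 17.5 to 23.8 CPM against 13.7 to 15.8 CPM without overlap (0.47, SE 0.19), and 10 of 20 members were higher.

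Synaptic genes were evenly split. Of 21 AMPA, kainate and NMDA receptor genes 12 were higher, of 20 GABA signalling genes 12, of 24 presynaptic genes 13 and of 21 postsynaptic scaffold genes 11, with medians from 0.03 to 0.06. With surrogate variables in the fit the GABA, presynaptic and postsynaptic medians were -0.05, -0.06 and -0.07. Single members lay apart: Gabrd, the delta subunit of extrasynaptic GABA-A receptors, held 65.9 to 79.6 CPM against 80.9 to 109 CPM (log2 fold change -0.39, SE 0.14), and Grm4, a presynaptic glutamate receptor, 18.7 to 33.2 CPM against 33.4 to 41.4 CPM (-0.45, SE 0.18). Homer3, a postsynaptic scaffold that binds group I metabotropic receptors, held 12.7 to 16.4 CPM against 17.7 to 23.6 CPM (-0.43, SE 0.18). None of the 3 had overlapping groups (3.35% of all genes in either direction) and limma with library weights called each (2.01% of all genes), while the edgeR adjusted p was 0.894. Each was the only member of its list without overlap, among 20 GABA signalling, 7 metabotropic receptor and 21 postsynaptic scaffold genes. The 21 AMPA, kainate and NMDA receptor genes and the 24 presynaptic genes had 0 members without overlap. The weighted fit also called Grik2, a kainate receptor subunit, on the higher side at 31.6 to 39.5 CPM against 26.2 to 34.8 CPM with overlap (0.27, SE 0.12). On the lower side it called Grin1 of the same list and the presynaptic genes Syt12 and Cplx1. These calls were 2 of 21 receptor genes and 2 of 24 presynaptic genes, against 2.01% of all genes.

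Genes for protein folding gave one of the more even lists. Of 24 heat shock and chaperone genes tested, 21 had a lower and 3 a higher fitted value in the combination, with a median log2 fold change of -0.14, and 0 were called. In 4 the groups did not overlap, all lower, against 1.73% of all genes. The list level of a library is the median over members of log2 CPM minus the member's mean over the 8 libraries compared. It was -0.04, -0.09, -0.04 and -0.19 log2 units in the combination and 0.13, 0.12, 0.07 and 0.01 in psilocybin alone. All 4 combination libraries were below 0 and all 4 psilocybin libraries above it. List levels of olfactory bulb markers did not overlap either, at 0.04 to 0.11 in the combination and -0.12 to 0.00 in psilocybin alone. The median of the list was 0.04 with ketanserin alone and -0.06 in the 3 mg/kg pair.

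Several members of the endoplasmic reticulum (ER) were among the lower genes. Hspa5, the ER chaperone BiP, held 291, 273, 288 and 245 CPM in the combination and 354, 345, 305 and 312 CPM in psilocybin alone (log2 fold change -0.26, SE 0.12, 95% interval -0.52 to -0.01, edgeR adjusted p 0.894). Creld2, a secreted ER stress protein, held 12.4, 13.2, 13.3 and 11.6 CPM against 15.97, 18.53, 15.47 and 17.5 CPM (-0.41, SE 0.19), and Sdf2l1, a BiP cofactor, 10.1, 11.1, 11.9 and 6.84 CPM against 14, 17.6, 14.9 and 13.2 CPM (-0.58, SE 0.26). With Hyou1, the nucleotide exchange factor of BiP (137 to 159 against 159 to 175 CPM), these are the 4 genes without overlap. Calr, calreticulin, held 448 to 572 CPM against 546 to 694 CPM (-0.30, SE 0.14) with overlap in 1 library, and Herpud1, part of ER-associated degradation, 40.2 to 51.6 CPM against 43.5 to 62.7 CPM (-0.33, SE 0.14). Other ER members were nearer 0, with Canx, calnexin, at 0.04 and Hsp90b1, the ER paralog of Hsp90, at -0.12. Among cytosolic members, Dnajb1, an Hsp40 co-chaperone, held 91.1, 89.6, 94.7 and 84.3 CPM against 117, 104, 100.4 and 92.9 CPM (-0.20, SE 0.08, edgeR adjusted p 0.894) with overlap, while Hspa8 had 0.05, Hsp90ab1 -0.08 and Hsph1 -0.05. No difference between the compartments was tested.

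**Figure D4:**
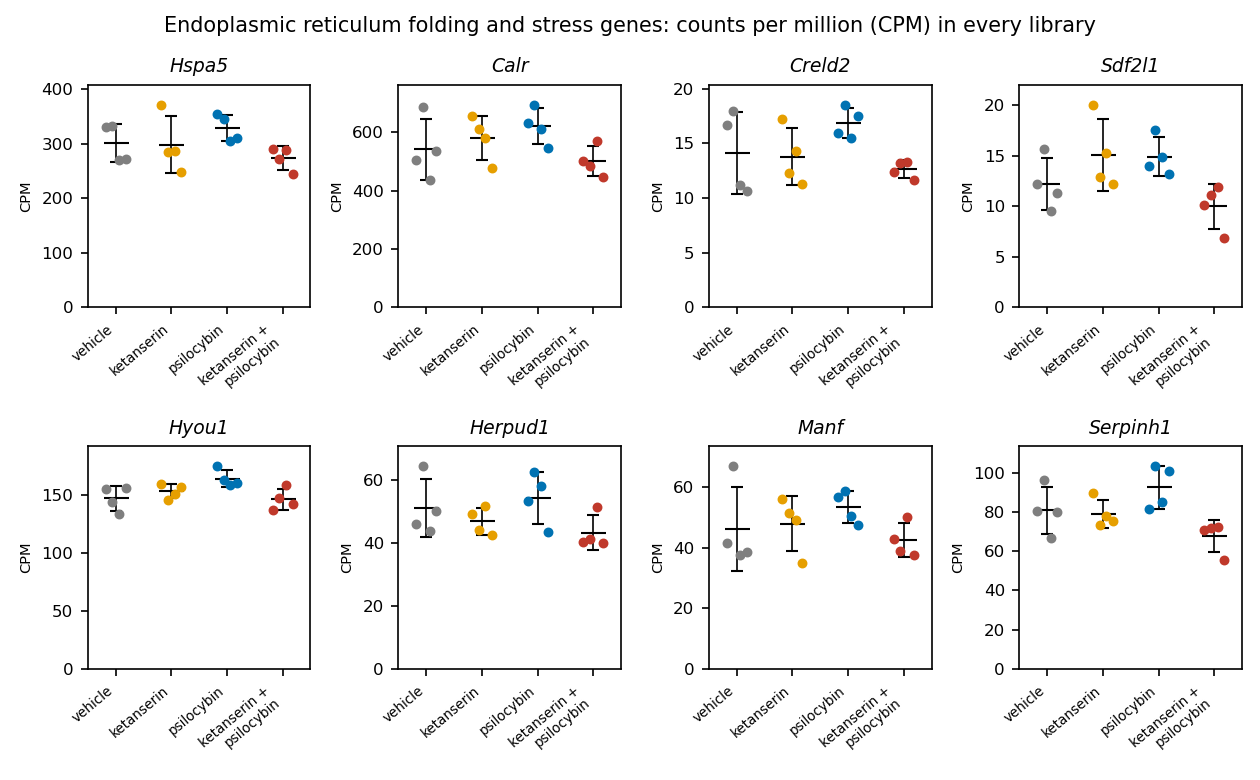
CPM (y axis, linear from 0) of 8 genes of the endoplasmic reticulum in 4 groups of 4 libraries, each point 1 library, bars mean ± SD. For Hspa5 the combination spans 245 to 291 CPM and psilocybin alone 305 to 354 CPM, with vehicle and ketanserin alone overlapping both.

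Serpinh1, the collagen chaperone HSP47 of the same compartment, was in the set of 12 lower genes. It held 71.1, 71.97, 72.4 and 55.6 CPM in the combination and 81.6, 103, 84.9 and 101 CPM in psilocybin alone, without overlap (log2 fold change -0.45, SE 0.12, 95% interval -0.71 to -0.20, edgeR adjusted p 0.894). Leaving out each library in turn gave -0.50 to -0.37.

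The promoters of these genes are shown because Hspa5, Calr and Creld2 carry an exact ER stress response element and Serpinh1 an exact heat shock element, the sites by which unfolded protein is known to act on transcription. Each sequence is the 250 bases before the annotated start, 5′ to 3′ on the strand of the gene, from RefSeq (GRCr8, a different build from the counts), with the match in capitals. The ER stress response element searched was CCAAT, then 9 bases of any kind, then CCACG, and the heat shock element was GAA, 2 bases of any kind, TTC, 2 of any kind and GAA, both on either strand.
Hspa5 (chr3:38452766-38453015, plus strand): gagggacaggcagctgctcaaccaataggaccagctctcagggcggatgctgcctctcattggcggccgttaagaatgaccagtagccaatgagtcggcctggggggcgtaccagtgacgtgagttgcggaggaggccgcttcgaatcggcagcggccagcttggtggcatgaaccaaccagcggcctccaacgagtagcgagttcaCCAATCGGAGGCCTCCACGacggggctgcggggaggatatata
Calr (chr19:40213117-40213366, plus strand): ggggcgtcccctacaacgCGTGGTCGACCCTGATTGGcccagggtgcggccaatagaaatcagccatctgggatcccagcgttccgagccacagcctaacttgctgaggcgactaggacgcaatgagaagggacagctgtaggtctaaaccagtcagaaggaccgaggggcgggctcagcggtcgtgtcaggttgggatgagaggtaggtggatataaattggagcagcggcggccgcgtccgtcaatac
Creld2 (chr7:121789134-121789383, plus strand): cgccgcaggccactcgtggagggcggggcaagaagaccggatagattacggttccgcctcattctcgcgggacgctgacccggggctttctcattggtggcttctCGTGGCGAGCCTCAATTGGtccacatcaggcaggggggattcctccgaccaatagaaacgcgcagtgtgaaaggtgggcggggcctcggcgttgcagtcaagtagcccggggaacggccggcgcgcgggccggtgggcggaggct
Serpinh1 (chr1:163062977-163063226, minus strand): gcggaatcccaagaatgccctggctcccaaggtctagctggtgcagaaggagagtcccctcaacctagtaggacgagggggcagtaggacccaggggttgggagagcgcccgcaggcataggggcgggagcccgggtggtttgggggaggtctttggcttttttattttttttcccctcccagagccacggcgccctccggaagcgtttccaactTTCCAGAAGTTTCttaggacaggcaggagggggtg

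Of the 24 chaperone genes, 21 had a promoter in the table and 6 of those (28.6%) held the ER element, against 0.0657% of 33469 promoters. The list was made up of folding and ER stress genes, so the choice of list favours this share. Of the 6 genes with the element, Hspa5, Calr, Creld2, Hsp90b1 and Xbp1 had lower and Canx a higher fitted value, with a median of -0.20. Over all 16 tested records whose promoter held it, in or out of the list, 9 were lower and 7 higher, with a median of -0.10. The heat shock element stood in 0.663% of promoters and its 45 tested genes had a median of 0.06. In the chaperone list 3 promoters (14.3%) held it, those of Hspa8 (0.05), Hspd1 (-0.08) and Hsph1 (-0.05), with a median of -0.05. Sdf2l1, Hyou1 and Herpud1 had no exact ER element in this window. A match is a description of letters and says nothing of occupancy.

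Innate immune and interferon genes had 16 lower and 8 higher of 24 members, with a median of -0.13. Oas1a, an interferon-induced sensor of double-stranded RNA, held 0.612, 0.716, 0.303 and 0.456 CPM in the combination and 2.36, 1.65, 0.874 and 0.935 CPM in psilocybin alone (log2 fold change -1.46, SE 0.47, edgeR adjusted p 0.894). Irf7, the interferon regulatory factor, held 2.68 to 3.00 CPM against 3.24 to 6.52 CPM and Isg15, a ubiquitin-like modifier, 1.08 to 2.14 CPM against 2.31 to 3.36 CPM. The groups of these 3 of 24 members did not overlap, against 1.73% of all genes in that direction, and Oas1a was under 1 CPM in every combination library. Without psilocybin replicate 1 the median of the list was -0.03.

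Clock genes leaned the other way, with 15 of 18 higher and a median of 0.16. Per2, a repressor of the circadian loop, held 49.4, 35.4, 35.6 and 62.7 CPM against 36.8, 38.8, 30.1 and 39.5 CPM (log2 fold change 0.34, SE 0.20), with overlap. The list level was 0.31 in combination replicate 4 and -0.03 to 0.06 in the other 3 combination libraries, and without replicate 4 the median was 0.05. Potassium channel genes had 19 of 27 higher, at a median of 0.12, which was 0.01 without the same library and -0.05 with surrogate variables in the fit. No label used here states the time of day of collection.

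**Figure D5:**
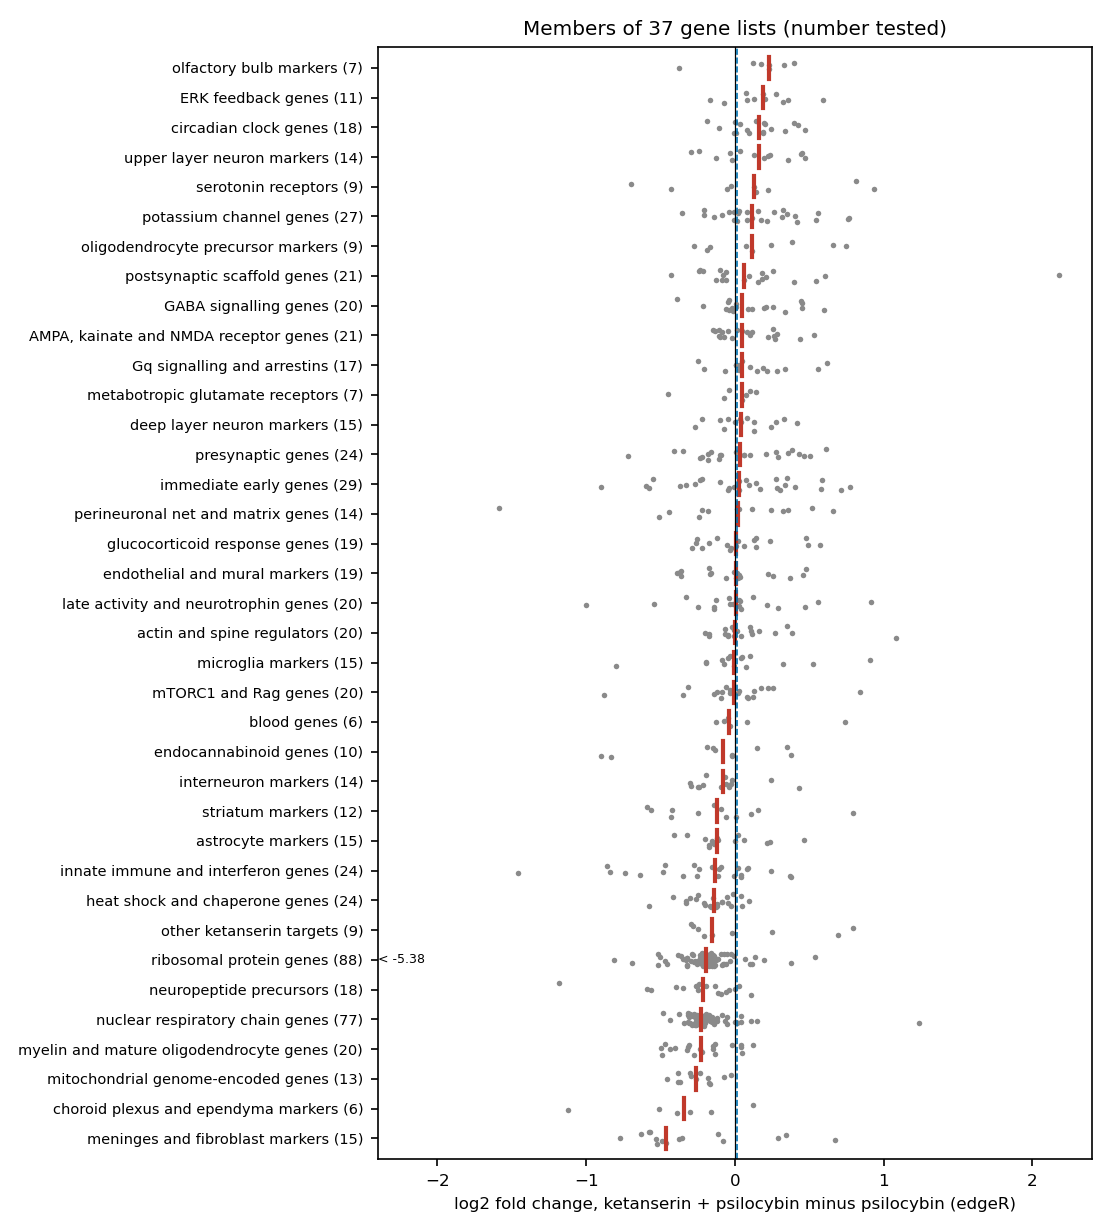
Log2 fold change of every tested member (grey points, x axis) of 37 gene lists, combination minus psilocybin alone, with the list median in red and the median of all genes as a dashed line. Medians run from -0.46 for meninges and fibroblast markers to 0.23 for olfactory bulb markers; values outside the axis are written at its edge.

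Lists of short housekeeping transcripts were lower as a body. Of 88 ribosomal protein records 81 were lower (median -0.19), of 77 nuclear respiratory chain genes 69 (median -0.22) and of 13 genes of the mitochondrial genome 13 (median -0.26), with 0 called in edgeR and no member without overlap. Per library the ribosomal list stood at -0.11, -0.03, 0.19 and -0.44 log2 units in the combination and at 0.04, 0.43, 0.14 and -0.22 in psilocybin alone, so the groups overlapped widely. Across all genes the log2 fold change had a Spearman rho of 0.21 with gene length, and its median ran from -0.09 in the shortest of 4 equal length classes (median 839 bases) to 0.10 in the longest (4659 bases). The part of gene length in these medians was not tested. Without psilocybin replicate 2 the 3 medians were -0.07, -0.08 and -0.06.

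Markers of other cell types were compared as whole lists. Meninges and fibroblast markers had 12 of 15 lower, at a median of -0.46, and their summed level was 679 to 1137 CPM in the combination, 938 to 1669 CPM in psilocybin alone and 975 to 1263 CPM in vehicle. Igf2, a growth factor made by meningeal and vascular cells in adult brain, held 102, 83.4, 87.5 and 93.0 CPM against 78.4, 169, 122 and 258 CPM (log2 fold change -0.77, SE 0.25), and Bgn, a matrix proteoglycan, 22.01 to 34.5 CPM against 30.8 to 57.5 CPM (-0.58, SE 0.22). Psilocybin replicate 4 was the highest library for both, and without it the median was -0.27. Serpinh1 and Sdc1 are also made by such cells, and the part of these markers in their values was not tested. In bulk tissue, fewer cells of a type and less RNA per cell cannot be told apart.

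Myelin and mature oligodendrocyte genes had 16 of 20 lower, at a median of -0.23, and a summed level of 4023 to 9501 CPM against 3653 to 9700 CPM, so the libraries of each group differed by more than the groups, and without psilocybin replicate 3 the median was -0.05. Astrocyte markers summed to 3727 to 4214 CPM against 4191 to 4507 CPM, with 9 of 15 lower. Within that list Gjb6, a connexin of astrocytes, held 29.5 to 34.5 CPM against 35.8 to 53.2 CPM without overlap (log2 fold change -0.41, SE 0.14), and limma with library weights called 3 members, Gjb6, Aldoc and Acsbg1, all lower (1.19% of all genes in that direction). Of the 6 higher members Aqp4, the astrocytic water channel, held 237, 196, 160 and 204 CPM against 175, 136, 144 and 231 CPM with overlap (0.22, SE 0.18). Endothelial and mural markers summed to 591.6 to 632.5 CPM against 560.0 to 718 CPM, with 10 of 19 higher and a median of 0.01 (-0.05 with surrogate variables). Among them Vwf, the platelet-binding factor of endothelium, held 39.6 to 41.9 CPM against 46.6 to 60.3 CPM without overlap (-0.36, SE 0.15), and Abcc9, a mural potassium channel subunit, had 0.37 (SE 0.23), also without overlap. In this list the groups did not overlap in 2 lower members (1.73% of all genes in that direction) and 1 higher member (1.62%). Microglial markers summed to 412.5 to 500.5 CPM against 427 to 489 CPM, with 7 of 15 higher and a median of -0.00. Cx3cr1, their fractalkine receptor, held 11.01, 11.1, 6.82 and 14.2 CPM against 6.15, 2.61, 5.31 and 8.92 CPM (0.91, SE 0.37) with overlap, and Cd68, a lysosomal protein of phagocytes, 0.550 to 2.15 CPM against 1.77 to 2.99 CPM (-0.80, SE 0.60) with overlap. Cldn5 and Siglech were listed at 0 in all 8 libraries.

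Striatal markers summed to 397 to 452 CPM in the combination and 445 to 591 CPM in psilocybin alone, with 8 of 12 lower. Penk, the enkephalin precursor, which cortical interneurons also make, held 53.3, 68.7, 64.0 and 61.6 CPM against 65.8, 121, 92.5 and 94.3 CPM (log2 fold change -0.59, SE 0.19). Its groups overlapped through psilocybin replicate 1. Ppp1r1b, DARPP-32, held 144 to 208 CPM against 151 to 305 CPM (-0.43, SE 0.20), while the striatal marker Drd1 was on the higher side. Neuropeptide precursors had 15 of 18 lower, at a median of -0.22 (-0.11 without combination replicate 4), with Nts, neurotensin, at 0.606 to 2.22 CPM against 1.24 to 5.01 CPM (-1.19, SE 0.57). Hapln4, a link protein of perineuronal nets, held 164, 221, 213 and 187 CPM against 195, 355, 324 and 243 CPM (-0.51, SE 0.19). Its list of perineuronal net and matrix genes, which also holds Mmp9, had 8 of 14 higher and a median of 0.02, with Has3, a hyaluronan synthase, at 0.52 (SE 0.30). Olfactory bulb markers had 6 of 7 higher, at a median of 0.23. They summed to 58.6 to 64.5 CPM in the combination, 52.4 to 58.4 CPM in psilocybin alone and 52.2 to 62.5 CPM in vehicle. Whether the dissected piece differed between animals was not tested.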

How the data were processed

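The deposited table of whole-number counts per gene was used for all tests, and the authors' FPKM table for levels compared between genes. Per the submitters' processing notes, the rn6 build was used with featureCounts 1.5.0-p3, StringTie 1.3.3b and HISAT2 2.0.5. No source used here states whether counting used strand, so overlapping antisense genes cannot be told apart. The counts of the 28 libraries were mapped to 7 groups of 4 by the treatment labels. All libraries were fitted together with edgeR 4.0.16 (R 4.3.3; TMM scaling, filterByExpr, robust quasi-likelihood, 21 residual degrees of freedom), which kept 17404 of 36387 records. P values were adjusted by Benjamini-Hochberg over all tested genes at a threshold of 0.05. They set a group difference against the spread of libraries within groups, estimated from all 28 libraries. CPM values use library totals scaled by TMM.

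Named genes were the 12 with the smallest p in each direction (3 in each difference test) among genes with a standard symbol and a mean of at least 1 CPM, up to 4 members of each of 37 gene lists, and Htr2a, Htr2c and Htr1a. Members of the lists named beyond these, for the level of a receptor, a contrast within the list or a motif, were chosen after their values were seen. The comparison, the lists and the rule were chosen with earlier results of these data known. Alternatives were DESeq2 1.42.0, limma 3.58.1, surrogate variables (sva 3.50.0), other scaling and filters, the groups of the contrast alone, and leaving out each library. The fits were tested on simulated data. No pair of libraries in a group agreed within sampling noise. Promoters were taken from RefSeq (GRCr8) and matched by symbol.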

Additional observations from a re-analysis of the deposited data

Results flagged for a closer look

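In 266 groups of 4 values (named genes and gene lists, combination and psilocybin alone), the highest and lowest library were checked for a gap to the nearest other library that exceeds Dixon's 95% critical value as a share of the range. Chance alone gives about 5% of such groups, and 16 were found. In combination replicate 3, a high value was seen for Bcan at 315.0 CPM (others 289 to 292), Dlg4 at 1304 CPM (others 1048 to 1082), Fosb at 10.3 CPM (others 6.841 to 7.399), Fscn1 at 147 CPM (others 124 to 127), Herpud1 at 51.6 CPM (others 40.2 to 41.5) and Shisa8 at 5.15 CPM (others 3.85 to 4.05). Combination replicate 4 was high for Dusp6 at 36.7 CPM (others 29.0 to 30.0). It was also high for the AMPA, kainate and NMDA receptor list, whose list level was 0.14 log2 units (others -0.01 to 0.00). The same library was low for Serpinh1 at 55.6 CPM (others 71.1 to 72.4) and for Gpr34, a microglial receptor, at 9.18 CPM (others 12.3 to 12.9). Sh3kbp1 was low in combination replicate 1 at 43.4 CPM (others 48.3 to 48.7), and Irf7 was high in combination replicate 2 at 3.00 CPM (others 2.68 to 2.73). In psilocybin alone, replicate 1 was high for Htr2a at 34.1 CPM (others 27.5 to 28.2) and for Il6r at 7.33 CPM (others 5.76 to 5.99). Adra1d was high in psilocybin replicate 2 at 185 CPM (others 143 to 147), and the blood gene list was low in psilocybin replicate 3 at -0.63 log2 units (others 0.19 to 0.29).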

How the results depend on the processing

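The count of genes called for adding ketanserin at 1 mg/kg was 0 with RLE scaling, no filter, a stricter filter, only the groups of the contrast, and surrogate variables; it was 1 with DESeq2, 349 with limma and library weights, and 0 to 1 when each library was left out. The difference with and without psilocybin gave 1249 with limma and library weights and 0 to 1 over the left-out libraries, and the difference between dose pairs gave 4 and 0 to 0. Limma without weights, and leaving out the distant library of the 3 mg/kg combination (both chosen after seeing the data; the second for the first test only), gave 0. Among named genes, sign changes were seen only when a library was left out: Htr2c ranged from -0.16 to 0.06 (with 0 and 0.05 between), Grcc10 from -0.06 to 0.56 and Fosb from -0.37 to 0.03. With surrogate variables the list medians moved by more than the spread of replicates for olfactory bulb markers (0.16), other ketanserin targets (-0.05), potassium channels (-0.05) and presynaptic genes (-0.06), and the medians of metabotropic glutamate receptors (-0.10) and glucocorticoid response genes (-0.04) also changed sign, as did those given in the report; RLE, DESeq2 and surrogate variables moved the median of all genes by -0.00, -0.00 and -0.02. The cause of these differences was not tested. No paired analysis was possible because the labels carry no replicate numbers. Depth of 12783067 or more counts limits low genes most.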
